A study of Mus musculus with 14 samples.

Results

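The regions described here are 11627 narrow binding sites of the corepressor RCOR2 at the ends of genes, out of 53367 RCOR2 peaks in mouse embryonic stem cells (ESCs). The peaks were chosen by their measured width and summit position: a peak was taken when it lay on chromosomes 1 to 19 or X, was under 1000 bp wide, and had its summit within 1000 bp of either end of a protein-coding gene interval of the RefSeq annotation of GRCm38. These positions and widths come from the same chromatin immunoprecipitation (ChIP) as the peak strengths, so width, fold and position are given as a description with no test. The other narrow peaks were 16326 deeper inside genes and 23197 elsewhere, and 2066 peaks were wider.

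The series examined the protein complex at the Nanog promoter in ESCs of the C57BL/6 background, and within it the binding of RCOR2 and the effect of its loss. The ChIP used an anti-HA resin on 2 samples of RCOR2-HA expressing cells, with 2 negative controls, of which one was WT cells and the other mCherry expressing cells. The first ChIP and control were sequenced single-end on a NextSeq500 and the second paired-end on a HiSeq 3000, and the peak names show that the list was called on merged libraries, so a peak has 1 value and no replicate error. RNA-seq covered RCOR2 KO cells (2 libraries) and WT cells (2 libraries) of the same background. The medium of all cells held serum, the cytokine LIF and the 2i compounds PD0325901 and CHIR99021, which inhibit the kinases MEK and GSK3, so a MEK inhibitor was present in both genotypes. The labels name neither the number of KO clones, nor the part of Rcor2 that was deleted, nor the promoter driving RCOR2-HA.

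RCOR2 belongs to the CoREST family of corepressors, which join the histone demethylase LSD1 and histone deacetylases and are best known as partners of REST. REST binds the RE1 element and keeps neuronal genes silent in cells that are not neurons. CoREST proteins and LSD1 are also found at promoters of genes that are transcribed.

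The strongest promoter peaks included ones centred on RE1 elements, and these are shown because the element and the summit could be placed against each other base by base. The RefSeq promoter table of GRCm38.p6 gives windows from 250 bases before to 50 bases after each start. A core of the RE1 element of 14 bases, of which the middle 2 may be any base, was searched on both strands and found in 15 of 21044 windows of protein-coding genes, which hold 14 separate sites because Lca5 has overlapping windows. Of these 14 sites, 11 lay under an RCOR2 peak (78.6%), beside 30.5% of all windows touched by a peak. The 11 peaks had −log10 q values of 16.7 to 69.1, and a value of at least 15 was reached over 3.07% of all windows. The search for RE1 was made after peak strengths had been seen. The 5 sites that lie under the narrow peaks described here, with the motif in capitals and 8 bases on either side, are on GRCm38, 5′ to 3′ on the strand of the gene:
Fam163b: ccagcgtcAGCACCAGGGACAGttcctcgc
Fbll1: tgaggtagCTGTCCCTGGTGCTgactggac
Scamp5: gaatatttAGCACCACGGACAGctcctgca
Lhx3: cctccttcAGCACCGCGGACAGcgccagcc
Ogdhl: gggaggtcAGCACCTCGGACAGcgagggcc

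The Fam163b site (chr2:27142565-27142578, minus strand) lay 8 bp from the summit of a peak with a −log10 q of 38.8. At Fbll1 (chr11:35799059-35799072, minus strand) the motif lay in the opposite orientation, 5 bp from a summit with a −log10 q of 36.1. The Scamp5 site (chr9:57468198-57468211, minus strand) lay 2 bp from a summit with a −log10 q of 32.8. The sites of Lhx3 (chr2:26208276-26208289, minus strand) and Ogdhl (chr14:32321917-32321930, plus strand) lay 17 bp and 24 bp from summits that both had a −log10 q of 31.6. All 5 were among the 66 windows that hold the summit of a narrow peak with a −log10 q of at least 20, where they make up 7.58%. Another 6 sites lay under RCOR2 peaks outside the set: those of Ttc9b, Hrh3 and Sptbn4 were wider than the limit, and those of Osbp2, Gria2 and Gad2 had no gene interval end within reach. The sites of Pip, Lca5 and Robo2 had no RCOR2 peak over them.

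Of the 5 genes, 3 had 0 to 2 counts in every library of either genotype. Fam163b had 0 counts in both KO libraries and 0 and 2 in WT, Fbll1 had 0 in all 4 libraries, and Lhx3 had 0 and 0 in KO against 2 and 0 in WT. A count of 0 allows a level of up to 1.02 and 1.52 counts per 1e6 counts (CPM) in the KO libraries and 1.27 and 2.33 CPM in WT, for counting error only. Scamp5, a secretory carrier membrane protein, had 13 and 15 counts in KO and 19 and 6 in WT, which overlap. Ogdhl, which encodes a relative of the oxoglutarate dehydrogenase of mitochondria, had the most, with 220 and 109 counts in KO and 84 and 87 in WT. These are raw counts from libraries of unequal totals. Relative to the library totals, KO and WT overlap for Ogdhl too.

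Promoters of 5 further genes are shown because their windows hold a summit and the genes were either at the strongest peaks or among those that changed most in the KO. The run is the 250 bases before the start on the gene's strand (RefSeq table, GRCm38.p6), 5′ to 3′. Capitals mark the motifs searched on both strands: the GC box GGGCGG, the CCAAT box CCAAT, the E-box CACGTG, the NRF1 site GCATGCGC, the ETS site CCGGAAGT, the cAMP response element TGACGTCA and the TATA sequence TATAAA, where adjoining matches run together:
Cyb5r4: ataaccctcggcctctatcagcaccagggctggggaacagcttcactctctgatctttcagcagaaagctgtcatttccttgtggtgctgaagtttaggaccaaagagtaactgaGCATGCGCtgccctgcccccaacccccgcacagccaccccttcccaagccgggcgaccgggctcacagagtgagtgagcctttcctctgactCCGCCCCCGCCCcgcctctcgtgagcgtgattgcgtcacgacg
AA467197: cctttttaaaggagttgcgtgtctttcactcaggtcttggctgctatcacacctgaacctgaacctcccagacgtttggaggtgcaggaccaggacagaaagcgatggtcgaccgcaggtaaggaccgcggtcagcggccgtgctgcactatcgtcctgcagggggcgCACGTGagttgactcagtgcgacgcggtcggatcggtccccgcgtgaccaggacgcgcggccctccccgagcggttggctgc
Anxa2: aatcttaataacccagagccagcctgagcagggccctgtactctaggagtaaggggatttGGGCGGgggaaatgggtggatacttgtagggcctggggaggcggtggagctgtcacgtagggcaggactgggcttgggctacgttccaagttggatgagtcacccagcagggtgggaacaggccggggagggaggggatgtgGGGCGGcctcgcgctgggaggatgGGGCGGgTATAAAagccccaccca
Mov10l1: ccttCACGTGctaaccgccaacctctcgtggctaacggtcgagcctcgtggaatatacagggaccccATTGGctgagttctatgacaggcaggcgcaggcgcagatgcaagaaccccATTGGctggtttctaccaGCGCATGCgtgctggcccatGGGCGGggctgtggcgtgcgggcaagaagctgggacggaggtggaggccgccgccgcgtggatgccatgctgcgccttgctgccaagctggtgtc
Obi1: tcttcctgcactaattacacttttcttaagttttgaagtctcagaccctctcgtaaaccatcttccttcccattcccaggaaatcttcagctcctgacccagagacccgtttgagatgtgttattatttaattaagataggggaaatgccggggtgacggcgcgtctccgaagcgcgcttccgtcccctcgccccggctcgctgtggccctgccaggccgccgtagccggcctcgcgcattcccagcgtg

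Cyb5r4, a cytochrome b5 reductase (chr9:87021779-87022028, plus strand), had a summit 191 bp before this start in a peak enriched 21.1-fold. AA467197 (chr2:122637637-122637886, plus strand) had its summit 106 bp before the start at 10.8-fold, and its window holds an E-box. The window of Anxa2, encoding the calcium-dependent membrane protein annexin A2 (chr9:69453433-69453682, plus strand), holds 3 GC boxes before a TATA sequence, and the summit lay 21 bp after the start. Mov10l1, a helicase of the germline piRNA pathway (chr15:88982744-88982993, plus strand), had a summit 172 bp before this start. Obi1, a ubiquitin ligase gene (chr14:104522667-104522916, minus strand), had its summit 24 bp after the start, and none of these letters are in its 250 bases.

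Promoter windows with a narrow RCOR2 summit were rich in G, C and CpG. Of the 21044 windows, 2456 (11.7%) hold such a summit, and their median GC content was 65.0% with 25 CpG dinucleotides, against 56.7% and 13 over all windows. Among genes not detected in WT, here including genes missing from the count data, windows with a summit had a median GC of 65.7% and 23 CpG. Windows of such genes without any peak at an end had 47.7% and 3. Among genes detected in WT, which hold 2092 of the windows with a summit, the values were closer, 65.0% and 25 against 58.0% and 16. The GC box was in 72.1% of windows with a summit and 46.7% of all windows, and the ETS site in 10.3% and 5.20%. The cAMP response element was in 4.40% against 2.26%. The order was opposite for the CCAAT box, found in 29.9% of windows with a summit and 38.5% of all. It was also opposite for the TATA sequence, in 4.64% and 12.7%. Among WT-detected genes, windows with a summit and windows of genes without a peak had the GC box in 72.8% and 55.4%. The ETS site was in 11.0% and 7.02% of these, the cAMP response element in 4.45% and 2.70%, the CCAAT box in 30.2% and 40.4%, and the TATA sequence in 4.64% and 9.41%. GC content moved together with having a peak, and whether recovery of GC-rich fragments in the libraries had a part in this was not tested.

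Most of these peaks were at gene starts. Strand is known from the promoter table for 17273 of 21627 genes (79.9%), and of 9270 peaks whose nearest gene end had a known strand, 8451 (91.2%) were nearest to a start and 819 (8.83%) to a 3′ end. Around starts, 74.3% of the summits lay within 500 bp, 33.1% lay before the start, and the median position was 159 bp inside the gene. Per 1000 genes, 63.6 summits fell in the densest 100 bp, from 100 bp after the start, whereas no such rise was seen around 3′ ends, where summits had a median distance of 502 bp. Peaks of both kinds had the same median fold, 4.38, and the same median −log10 q, 4.46.

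**Figure D1:**
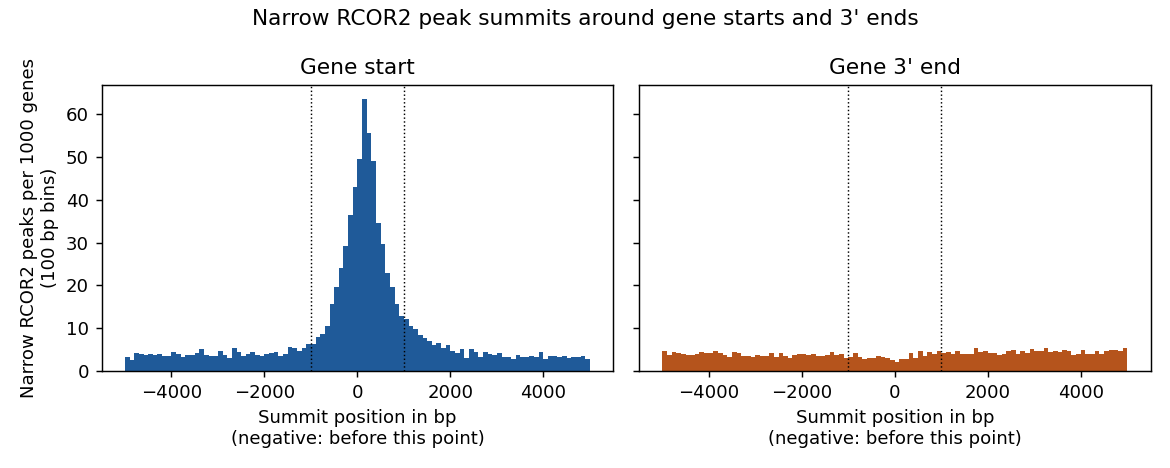
Number of narrow RCOR2 peak summits per 1000 genes (vertical axis) in 100 bp bins of position (horizontal axis, bp) around gene starts (left) and 3′ ends (right), for genes of known strand, with dotted lines at the limits of 1000 bp. Summits pile up just inside gene starts, reaching 63.6 per 1000 genes in one bin, and form no such pile at 3′ ends.

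The median width was 276 bp, the median fold 4.38 and the median −log10 q 4.46. Narrow peaks deeper inside genes and elsewhere had the same median fold, median −log10 q values of 4.51 and 4.87, and median widths of 246 and 247 bp. A −log10 q of at least 10 was reached by 9.20% of them, 13.6% of narrow peaks deeper inside genes and 13.5% of narrow peaks elsewhere. The 188 peaks in the last 100 bp under the width limit had a median fold of 6.21, and the 130 peaks at gene ends in the first 100 bp above it had 6.44. The 440 peaks in the last 100 bp of the distance limit had a median fold of 4.20, against 4.38 for the 410 just outside. A peak served 1 gene in 10065 cases and 2 genes in 1533. One weak peak on chromosome 18 lay within reach of 24 genes of the protocadherin gamma cluster, whose intervals share an end, so the cluster's genes are not independent carriers.

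By −log10 q, the 10 strongest peaks were led by one near the 3′ end of Rcor2 itself (chr19:7273997-7274700, 35.1-fold, −log10 q 247), which also lies within reach of the 3′ end of Mark2, a kinase of microtubule-associated proteins. The ChIP cells carry an RCOR2-HA construct, and reads of the construct and of the gene cannot be told apart at that position. The others were at genes with roles in neurons and excitable cells as well as at genes of other kinds. By fold the highest was that of Cacng2. Cacng2 and Cacng3, which encode auxiliary subunits of AMPA receptors, had peaks enriched 39.2-fold and 21.1-fold at their starts. Chgb, a protein of secretory granules and a known REST target, had 22.0-fold, and Stmn3, a stathmin of neurons, had 20.2-fold. Srrm3, a splicing factor of neurons, had its summit exactly on the start at 18.8-fold. The remaining genes of this group were Dvl1 with Tas1r3 (28.8-fold), Cyb5r4, Cd300e and Fam227a (19.3-fold). The most peaks at 1 gene were 6 at Tmem253, followed by 5 each at 10 genes, among them Actn1, Arhgap39, Bmp7 and Ccdc142.

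Of 21627 protein-coding genes, 9178 (42.4%) had at least 1 narrow RCOR2 peak at an end. The share was 35.3% to 51.8% on each autosome. On chromosome X it was 6.11% (59 of 966 genes), and 10.2% of its WT-detected genes had a peak (43 of 421), against 58.4% to 67.9% on the autosomes. The X carried 0.550% of these peaks, 1.90% of the other narrow peaks and 4.47% of the genes. Whether read depth or copy number of the X in the ChIP cells had a part in this was not tested.

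Gene families fell on both sides of this 42.4%, and 34 of the 48 families and lists examined lay above it. Most housekeeping families lay above it. Vps proteins of endosomal sorting had a peak at 26 of 35 genes (74.3%, 95% Wilson interval 57.9% to 85.8%), respiratory chain and ATP synthase subunits at 69 of 100 (69.0%), DEAD and DEAH helicases at 35 of 52 (67.3%), and spliceosome subunits and translation initiation factors at 66.7% each. Proteasome subunits (62.7%), mitochondrial ribosomal proteins (64.1%) and Rab GTPases (62.7%) were close to these. Counting only genes detected in WT, the shares were 64.6%, 64.9% and 68.0% in these last families, beside 61.8% of all detected genes. Over all genes of the family, cytosolic ribosomal proteins were lower, at 36 of 86 (41.9%). All but 3 of the 86 are detected in WT, and 41.0% of those detected had a peak.

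Chromatin and transcription factor families were also above the share of all genes. Lysine demethylases and methyltransferases had a peak at 24 of 33 genes (72.7%), Forkhead genes at 27 of 44 (61.4%), Sox genes at 12 of 19 (63.2%), and Zfp zinc finger genes at 240 of 397 (60.5%, interval 55.6% to 65.1%; 63.4% of those detected). Hox genes were lower, at 13 of 39 (33.3%). Core and linker histones had a peak at 61 of 80 (76.3%), and 48 of these had one at the 3′ end, these genes being so short that a single peak can lie within reach of both ends. Histone genes have near-identical copies, so reads may have been split or lost between them.

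Families used in specialised tissues lay lowest. Olfactory receptors had a peak at 11 of 1110 genes (0.99%, interval 0.554% to 1.77%), vomeronasal receptors at 5 of 355 (1.41%), keratins and keratin-associated proteins at 4 of 109 (3.67%), and beta-defensins at 0 of 42, which allows up to 8.38% by the same interval. Of the 11 olfactory receptor genes, 9 had a peak at the 3′ end. Chemokines, interleukins and their receptors (14.6%), cytochrome P450 genes (16.2%) and collagens (25.0%) lay between these and the share of all genes, and potassium channel genes stood at 35.1%. The intervals treat genes as independent, which clustered copies are not.

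**Figure D2:**
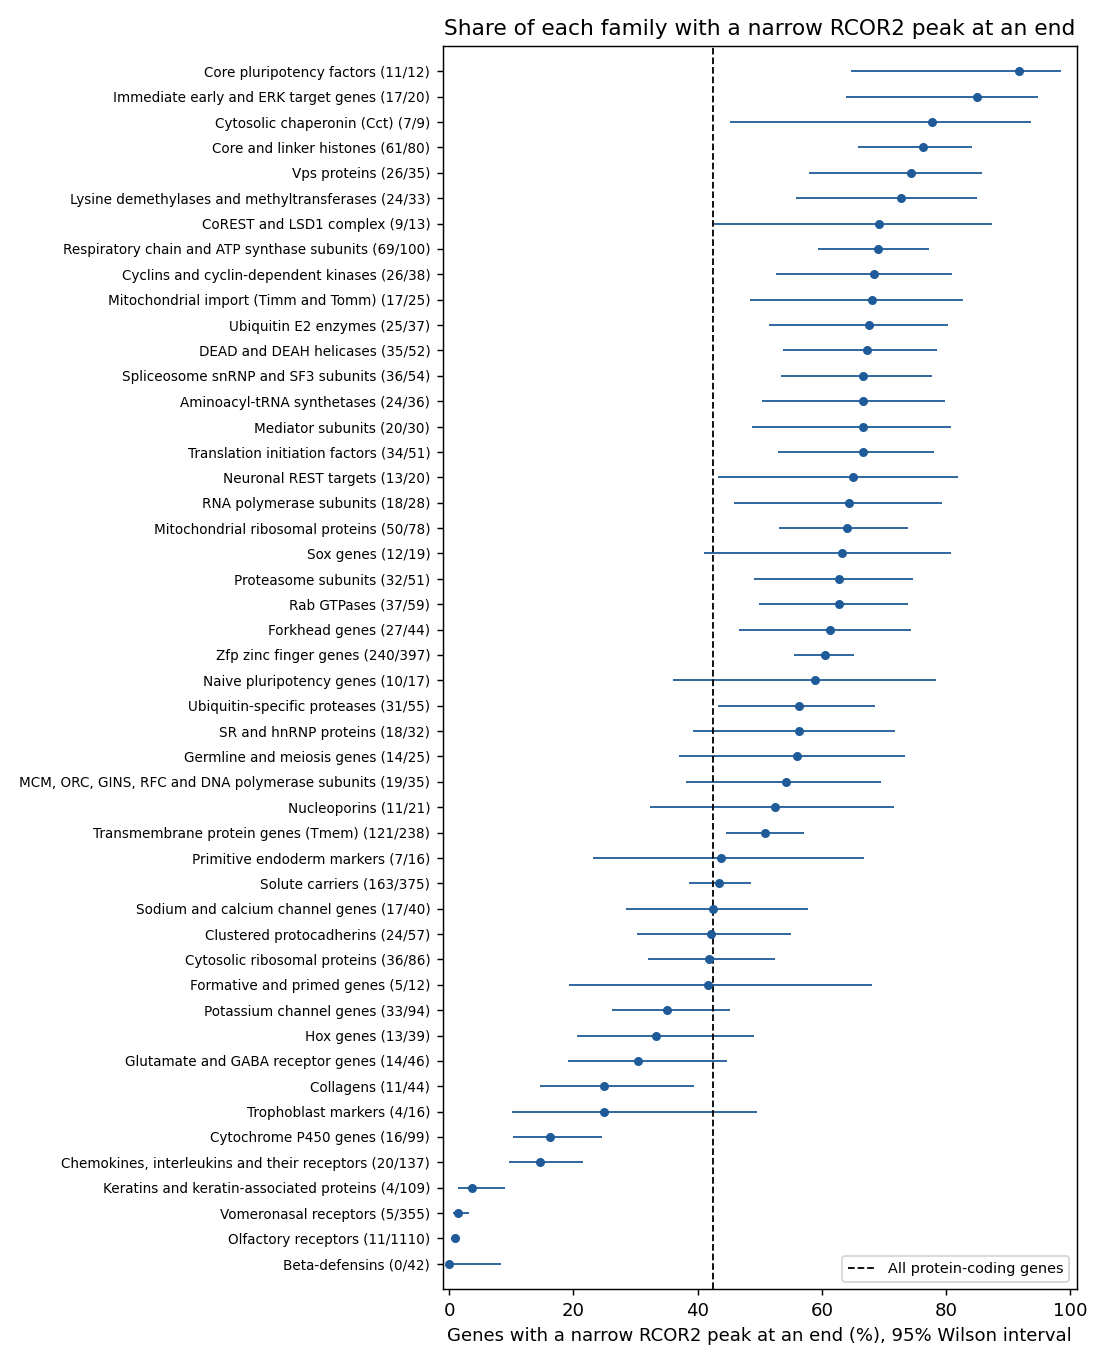
Share of genes with a narrow RCOR2 peak at an end (horizontal axis, %) in each of 48 families and lists (vertical axis, with the genes that carry a peak over the genes placed); points are shares, bars are 95% Wilson intervals, and the dashed line is the 42.4% of all protein-coding genes. Core pluripotency factors (91.7%) sit at the top and most housekeeping families lie above the line. Olfactory and vomeronasal receptor, keratin and defensin families lie at the bottom. The line includes genes not detected in WT, and 61.8% of detected genes had a peak.

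Among short lists of stem cell genes, core pluripotency factors had a peak at 11 of 12 genes, the exception being Dppa2. Immediate early and ERK target genes had one at 17 of 20 and naive pluripotency genes at 10 of 17. Formative and primed genes had one at 5 of 12 (41.7%). Counting only genes detected in WT, the shares of these lists were 91.7%, 84.6%, 58.8% and 50.0% in that order, beside 61.8% of all detected genes. The CoREST and LSD1 complex genes had a peak at 9 of 13, including Kdm1a (LSD1), Hdac1 and Phf21a. The median best −log10 q was 5.16 for core pluripotency factors and for immediate early genes, 7.24 for naive genes and 8.23 for the complex, beside 5.16 over all genes with a peak. Of 20 neuronal REST targets 13 had a narrow peak and 4 more only a wide one, and their median best −log10 q was 28.1. Among them were Chga (41.3) and Chgb (84.8), proteins of secretory granules, Syp of synaptic vesicles, Nefm (37.6) of neurofilaments, the glutamate receptor subunit Grin1 (35.2) and Cplx1 (28.1) of the release machinery. Those below the median were Syt4 (22.6), Scn2a (11.6), Stmn2 and Syn1 (6.64 each), Bdnf (5.89) and Vgf (3.23). Of the REST targets detected in WT, 61.5% had a narrow peak, beside 61.8% of all detected genes.

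WT expression was more common among genes with a peak than among others. Of 8968 such genes in the count table, 7428 (82.8%, interval 82.0% to 83.6%) were detected, meaning at least 1 count in each WT library, against 37.7% of 11384 genes with no RCOR2 peak at an end and 83.3% of 347 genes with only a wide one. Among genes with 0 WT counts 12.3% had a peak, and the share was 37.4% at 1 to 9 counts, 60.3% at 10 to 99, 68.6% at 100 to under 1000 and 65.9% at 1000 or more. The intervals of the last pair overlap. On the X the share was at most 22.2% (4 of 18 genes, in the highest class).

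**Figure D3:**
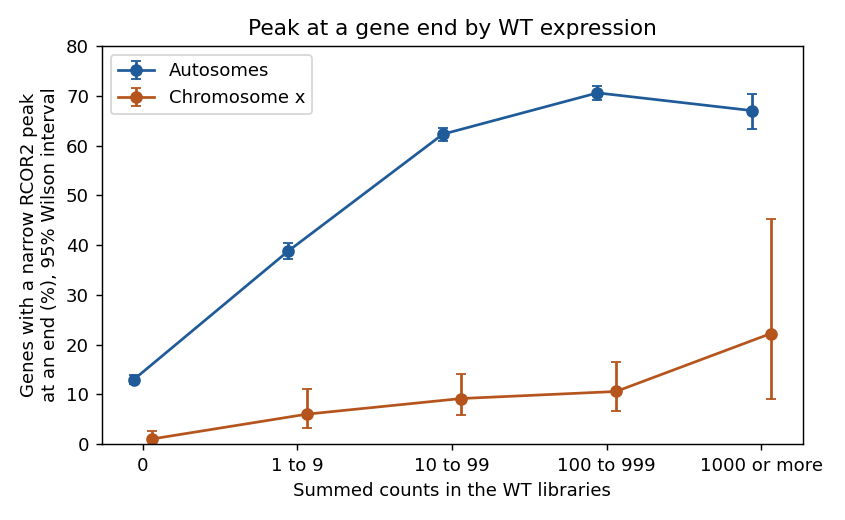
Share of protein-coding genes with a narrow RCOR2 peak at an end (vertical axis, %, with 95% Wilson intervals) by summed counts in the WT libraries (horizontal axis) for autosomes and chromosome X. The autosomal share climbs from 12.9% at 0 counts to 70.6% at 100 to under 1000 counts, and the X lies below the autosomes in every class.

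Detection was lower at the strongest peaks. Genes whose best peak had a −log10 q from 5 to 10 were detected in 85.3% of cases, and those at 20 and over in 68.7% of 268, with 17.5% at 0 WT counts. The share was 80.2% under 3, 82.0% from 3 to 5 and 81.1% from 10 to 20. Cacng3 had 0 counts in all 4 libraries, Cacng2 had 0 and 1 in KO and the same in WT, and Chgb had 1 and 0 in KO and 2 and 0 in WT. Of the other genes at the 10 strongest peaks, Tas1r3 and Cd300e were also not detected. Rcor2, Mark2, Dvl1, Cyb5r4, Stmn3, Fam227a and Srrm3 were detected. Their WT counts ran from 1 and 4 at Srrm3 to 193 and 107 at Rcor2.

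The KO comparison asked whether genes with RCOR2 at an end changed when it was lost. Of the 6483 genes with a peak that passed the expression filter, 686 (10.6%) were higher in KO and 592 (9.13%) lower at an adjusted p under 0.05 (edgeR quasi-likelihood test), which is 19.7% in all. The background over the 10241 genes tested was 19.7%, with 10.4% higher and 9.30% lower. Genes without any peak at an end were called in 19.5% of cases. The median log2 fold change of genes with a peak was −0.02, with quartiles at −0.41 and 0.41, and over all protein-coding genes tested −0.02. By the strength of the best peak, the share called ran from 17.9% at a −log10 q of 20 and over to 20.3% at 5 to 10. Genes with a peak at the 3′ end were called in 22.4% of 518, and the difference from the background was not tested. DESeq2 called 381 higher and 265 lower (9.12%), with a background of 8.58%, of which 5.03% was higher and 3.55% lower. Without KO replicate 1 the counts were 366 higher and 290 lower, and without KO replicate 2 they were 409 and 268.

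Calls were uneven over chromosomes, with and without a peak alike. Genes with a peak had a median log2 fold change of 0.85 on chromosome 6, 0.51 on chromosome 3, 0.51 on chromosome 8 and −0.49 on chromosome 11, and the other protein-coding genes there had 1.01, 0.40, 0.58 and −0.49. With each chromosome centred on its own median, 407 genes with a peak were higher and 428 lower (12.9% called; background 13.0%, with 6.28% higher and 6.69% lower). With those 4 chromosomes left out 295 were higher and 285 lower (11.7% called; background 12.1%, with 6.01% higher and 6.12% lower). Most genes on these chromosomes are therefore given below also as their centred value, and the cause of the shifts was not tested.

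**Figure D4:**
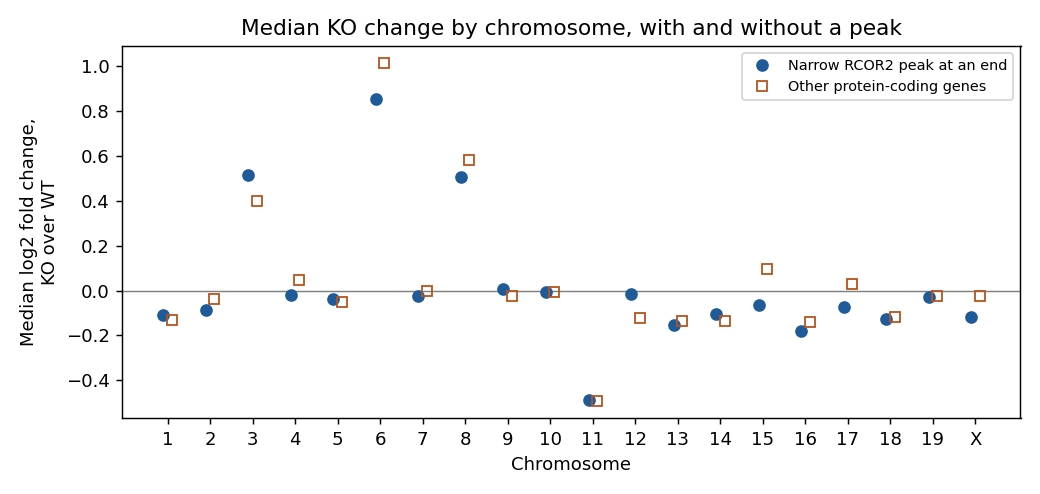
Median log2 fold change of KO over WT (vertical axis) on each chromosome (horizontal axis), for tested protein-coding genes with a narrow RCOR2 peak at an end (filled circles) and without (open squares). Both sets lie high on chromosomes 3, 6 and 8 and low on chromosome 11, and near 0 elsewhere.

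Of the called genes with a peak and a mean of at least 10 CPM, the largest rises included growth factor, early response and extra-embryonic genes. CPM here is per gene and not per length. These genes and the largest falls were picked by their called change. Where their KO and WT libraries do not overlap, this is description and no further support. Fgf10, a ligand of the fibroblast growth factor family, had 26.2 and 23.5 CPM in KO against 0 and 2.29 in WT, a ratio of summed counts of 29.9 (exact 95% counting interval 10.00 to 147; edgeR adjusted p = 1.09e-06). Egr1, an immediate early transcription factor, had 180 and 219 CPM in KO against 3.37 and 29.0 in WT (log2 fold change 3.87 ± 0.32 SE, edgeR adjusted p = 9.19e-15). The WT libraries of Egr1 differ widely from each other, and both lie below KO. Without WT replicate 1 the log2 fold change of Egr1 was 2.79, and without WT replicate 2 it was 5.86. That of Fgf10 was 4.79, with 3.43 without WT replicate 1 and 8.90 without WT replicate 2, where the WT library left has 0 counts and the fitted value is no bound.

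Peg10 and Sgce, imprinted neighbours on chromosome 6, share 1 RCOR2 peak enriched 5.75-fold. Peg10 had 120 and 108 CPM in KO against 7.17 and 10.7 in WT (log2 fold change 3.73 ± 0.30, centred 2.82). Sgce, encoding a sarcoglycan, had 41.4 and 33.5 CPM against 1.69 and 8.38 (3.11 ± 0.48, centred 2.19), with 2.18 without WT replicate 1 and 4.44 without WT replicate 2. Both remained called after centring, and in neither gene did the KO and WT libraries overlap.

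AA467197, with the strongest peak of these genes (10.8-fold, promoter shown above), had 378 and 412 CPM in KO against 41.3 and 29.0 in WT (log2 fold change 3.45 ± 0.20, edgeR adjusted p = 1.59e-21). Anxa2 had 149 and 169 CPM against 17.3 and 22.9 (3.02 ± 0.25). C130074G19Rik had 37.3 and 61.2 CPM against 7.17 and 6.10 (2.85 ± 0.40). KO lay above WT in every library for these 3 genes.

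Eomes and Tead4, transcription factors of the trophoblast lineage, also rose. Eomes had 17.3 and 22.5 CPM in KO against 1.26 and 3.05 in WT (log2 fold change 3.30 ± 0.66, edgeR adjusted p = 0.000132), with 2.69 without WT replicate 1 and 3.91 without WT replicate 2. Tead4 had 48.3 and 49.7 CPM against 6.74 and 6.86 (2.84 ± 0.39, centred 1.93 on chromosome 6). The summed level of 4 trophoblast markers (Cdx2, Elf5, Hand1, Gata3) was 37.3 and 44.5 CPM in KO and 8.43 and 13.0 in WT, with none of the 4 at 0 in all libraries, and its part in these values was not tested. Most of that sum was Gata3, with 94 and 75 counts in KO and 20 and 15 in WT, while Cdx2 had 8 and 6 against 0 and 0. Of the 16 genes of the longer trophoblast list, those with a peak were called higher in 2 of 2 tested. These were Eomes and Tead4, already picked as largest rises. Those without a peak were called higher in 4 of 6 tested and lower in 2, Esx1 (−2.48) and Tfap2c (−1.44). The background was 10.4% higher and 9.30% lower. Bulk counts cannot tell more cells of a type from more RNA per cell. The summed level of 7 ESC markers stayed between 3575 and 3798 CPM in all 4 libraries.

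The largest falls included genes of the germline. Dmrt1, a transcription factor of germ cells and gonads, had 0.345 and 3.14 CPM in KO against 33.7 and 18.3 in WT (log2 fold change −4.08 ± 0.64, edgeR adjusted p = 2.01e-06). Mov10l1 had 2.76 and 0 CPM against 27.4 and 15.2 (−3.72 ± 0.68). Meioc, required for meiotic progression, had 4.14 and 4.19 CPM against 64.1 and 36.6 (−3.60 ± 0.42, centred −3.12 on chromosome 11). Dazl, an RNA-binding protein of germ cells, had 39.7 and 33.0 CPM against 323 and 291 (−3.07 ± 0.19, edgeR adjusted p = 2.07e-19). WT and KO libraries did not overlap in any of these 4. Without KO replicate 1 the value of Dmrt1 was −3.06 and that of Mov10l1 −8.35, the KO library left for Mov10l1 having 0 counts, so that the fitted value is no bound. Without KO replicate 2 these values were −6.04 and −2.94. Without WT replicate 1 that of Dmrt1 was −3.49.

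The other falls were in genes of mixed function. Ephx2, a soluble epoxide hydrolase, had 6.21 and 2.09 CPM in KO against 56.9 and 59.4 in WT (log2 fold change −3.69 ± 0.41; −4.75 without KO replicate 1). Tbc1d9, a predicted regulator of Rab GTPases, had 1.73 and 1.05 CPM against 19.0 and 19.8 (−3.70 ± 0.69, centred −4.20 on chromosome 8). Lyrm7, an assembly factor of respiratory complex III, had 4.83 and 3.66 CPM against 40.9 and 50.3 (−3.37 ± 0.43, centred −2.89 on chromosome 11). Each of these genes was low in both KO libraries.

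Obi1 had 1.04 and 3.14 CPM in KO against 22.8 and 19.0 in WT (log2 fold change −3.41 ± 0.65; −2.72 without KO replicate 1 and −4.26 without KO replicate 2). Elobl had 0.345 and 2.62 CPM against 24.0 and 20.6 (−4.05 ± 0.69, centred −3.58 on chromosome 11; −3.07 without KO replicate 1 and −5.79 without KO replicate 2). Zfp981 had 5.18 and 6.28 CPM against 63.7 and 70.1 (−3.55 ± 0.37). Elobl and Zfp981 are members of families with closely related copies, so their counts are uncertain.

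**Figure D5:**
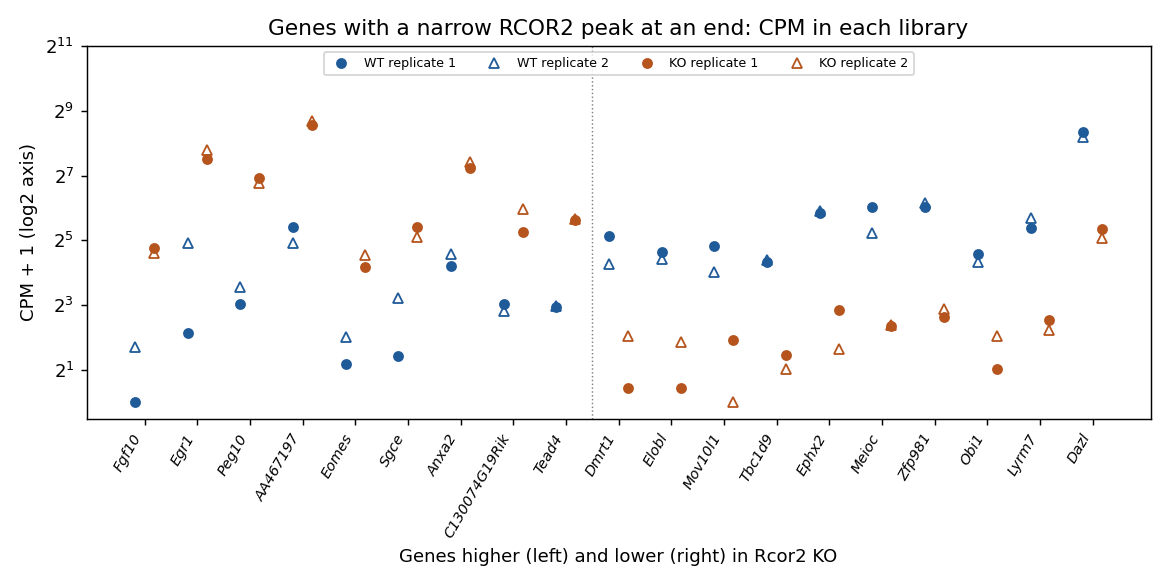
CPM plus 1 (vertical axis, log2 scale) in each WT and KO library for 19 of the genes with a narrow RCOR2 peak at an end that rose (left, 9 genes) or fell (right, 10 genes) most in the KO, among those called by edgeR with a mean of at least 10 CPM. KO and WT libraries do not overlap for any of the 19, from Fgf10 at 0 and 2.29 CPM in WT to Dazl at 323 and 291. The genes were picked by their called change, so the lack of overlap is no further support.

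Among the lists, germline and meiosis genes with a peak were called lower in 8 of 12 tested and higher in 0 (background 9.30% lower), with a median log2 fold change of −1.82 against −0.02 over all tested protein-coding genes. Beside the 4 above these were Mael (−3.83 ± 0.83), of the piRNA pathway, the meiotic cohesin Smc1b (−2.24 ± 0.27), Sycp1 (−1.27 ± 0.27), of the synaptonemal complex, and Stra8 (−1.40 ± 0.31), which starts meiosis. Sycp1 and Stra8 fell although they lie on chromosomes 3 and 6, and their centred values were −1.74 and −2.32. Leaving out any 1 library, or using DESeq2, also gave 8 lower and 0 higher, and edgeR found 10 lower and 0 higher at an unadjusted p under 0.05. Germline genes without a peak were called lower in 4 of 8, and the difference between the sets was not tested. The lists were chosen with earlier results of these data known, and 4 of the 8 genes were also picked as largest falls. Counts of calls in the lists, here and below, are therefore description only.

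Immediate early and ERK target genes with a peak were called higher in 5 of 11 and lower in 0 (background 10.4% higher), with a median of 0.68. After centring these were 4 and 0 (background 6.28% higher) and the median was 0.17. At an unadjusted p under 0.05 edgeR found 5 higher and 1 lower, DESeq2 called 3 higher and 0 lower, and edgeR without KO replicate 2 called 4 and 1. Beside Egr1 the genes called higher were Ier3 (1.95 ± 0.45), Ier2 (0.99 ± 0.19), Fos and Etv4. Once chromosome 8 was centred Ier2 had 0.48 (edgeR adjusted p = 0.0890). Genes of this list without a peak were called higher in 0 of 2 tested and lower in 1, Etv5 (−1.32 ± 0.22). Fos had 77.3 and 65.9 CPM in KO against 6.74 and 44.2 in WT. Its log2 fold change was 1.65, with 3.40 without WT replicate 2 and 0.72 without WT replicate 1. The call was lost without WT replicate 1 (edgeR adjusted p = 0.126) and with DESeq2 (adjusted p = 0.543). Etv4, an ETS factor on chromosome 11, had 8.28 and 13.6 CPM against 1.69 and 0. Its log2 fold change was 3.30, with 2.64 without WT replicate 2, and 7.47 without WT replicate 1, where the WT library left has 0 counts and the value is no bound. The call was lost without KO replicate 2 (edgeR adjusted p = 0.123) and with DESeq2 (adjusted p = 0.0545).

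Naive pluripotency genes with a peak were called higher in 5 of 10 and lower in 1 (background 10.4% and 9.30%), and after centring in 6 and 2 (background 6.28% and 6.69%). Klf4 had 653 and 660 CPM in KO against 312 and 217 in WT (log2 fold change 1.30 ± 0.16), and Tbx3 had 587 and 428 against 175 and 222 (1.37 ± 0.16). Tfcp2l1 had 403 and 446 CPM against 179 and 290 (0.87 ± 0.17). Klf5 and Tcl1 were called higher too, but neither call held without KO replicate 1 or KO replicate 2 (edgeR adjusted p = 0.0593 and 0.0659 for Klf5, 0.168 and 0.162 for Tcl1), and without WT replicate 2 they stood at 0.116 and 0.125. Without WT replicate 1 the Tcl1 call was also lost (edgeR adjusted p = 0.0994). Dppa3 had 111 and 74.8 CPM against 272 and 247 (−1.47 ± 0.18, centred −2.39 on chromosome 6). All of these transcription factors and markers stayed expressed in both genotypes. Naive genes without a peak were called higher in 0 of 7 tested and lower in 1.

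Core pluripotency factors with a peak were called higher in 3 of 11 (Nanog, Gdf3 and Lin28a) and lower in 1 (Fgf4), with Nanog and Gdf3 on chromosome 6 (background 10.4% and 9.30%). After centring the counts turned to 1 higher and 3 lower (background 6.28% and 6.69%), and the median log2 fold change went from 0.11 to −0.35. Nanog had 641 and 619 CPM in KO against 451 and 451 in WT (log2 fold change 0.48 ± 0.15, edgeR adjusted p = 0.0127). Centred on chromosome 6 the value turned to −0.44 (edgeR adjusted p = 0.0362), and without KO replicate 1 or KO replicate 2 the uncentred call was lost (edgeR adjusted p = 0.184 and 0.134). Gdf3, also on chromosome 6, had a value of 0.81 ± 0.18 that turned to −0.11 on centring. The Lin28a call (1.34 ± 0.47) was lost without KO replicate 1, KO replicate 2 or WT replicate 1 (edgeR adjusted p = 0.193, 0.114 and 0.198). Fgf4, a growth factor of ESCs, had 185 and 160 CPM against 292 and 322 (−0.83 ± 0.16) and lies on chromosome 7. Formative and primed genes with a peak were called higher in 1 of 5 (Tcf7l1, 1.04, on chromosome 6) and lower in 2 (Sox4, −1.30, and Zic2, −0.91). After centring these were 0 and 2. Without a peak, genes of this list were called higher in 0 of 5 tested and lower in 2.

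Nanog carried 2 narrow peaks, with the stronger at chr6:122706925-122707636 (7.58-fold, −log10 q 15.4) and its summit 398 bp before the start. That peak overlapped the Nanog locus peak of both TALE pull-downs, which isolate the locus through a designed DNA-binding protein. The only other overlap was TALE 1 at Nabp2 and Rnf41, where the RCOR2 peak reached 10.3-fold.

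Rcor2, the targeted gene, had 54.2 and 53.9 CPM in KO against 81.4 and 81.5 in WT (log2 fold change −0.59 ± 0.23, edgeR adjusted p = 0.0636). The libraries did not overlap, but the difference did not pass the test. Since the deleted part of the gene was not stated, this count neither supports nor goes against the genotype labels, and the libraries are named as labelled. Of the 9 tested CoREST and LSD1 complex genes with a peak, edgeR and DESeq2 called 0 (background 19.7% and 8.58% called). At an unadjusted p under 0.05 edgeR found 1 of them, Rcor2.

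Of the 13 REST targets with a peak 4 passed the filter, and edgeR called 1 of them higher and 0 lower (background 10.4% and 9.30%). This was Stmn2, with 635 and 652 CPM in KO against 519 and 386 in WT (log2 fold change 0.50 ± 0.15). The value was 0.03 once chromosome 3 was centred, and the call was lost without KO replicate 1, KO replicate 2 or WT replicate 2 (edgeR adjusted p = 0.111, 0.158 and 0.127). Chga had 45 and 35 counts in KO against 33 and 14 in WT and was not called. Nefm had 36 and 6 against 6 and 1 and did not pass the filter. REST targets without a narrow peak were called higher in 0 of 3 tested and lower in 1, Nefl (−1.16 ± 0.37).

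Housekeeping families with a peak gave calls whose number moved when chromosomes were centred or a library was left out. Mitochondrial ribosomal proteins were called higher in 3 of 47 and lower in 11 (background 10.4% and 9.30%), and after centring in 0 and 9 (background 6.28% and 6.69%). Mrpl15 (−1.06 ± 0.15, chromosome 1) and Mrps5 (−0.91 ± 0.18, chromosome 2) fell off the shifted chromosomes. Mrps24 (−1.09 ± 0.15) and Mrpl58 (−1.25 ± 0.18) on chromosome 11 had centred values of −0.60 and −0.77. Without KO replicate 1 the family's falls were 6.

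Genes with initiation factor names were called higher in 1 of 32 and lower in 9 (background 10.4% and 9.30%). The rise was Eif4ebp1 (0.97 ± 0.14, centred 0.45), which encodes a repressor that binds the factor eIF4E and is in the list by its name. The falls numbered 3 without KO replicate 1, 1 without KO replicate 2 and 3 after centring. Proteasome subunits were higher in 1 of 31 and lower in 7 (background 10.4% and 9.30%). Psmb3 (−0.91 ± 0.14) and Psmd12 (−0.92 ± 0.15), both on chromosome 11, had centred values of −0.43 and −0.44. The family's falls ranged from 3 without KO replicate 1 to 12 without WT replicate 2, with 4 without KO replicate 2 and 4 after centring (background 6.69% lower). Respiratory chain and ATP synthase subunits were higher in 8 of 66 and lower in 12 (background 10.4% and 9.30%), and after centring in 2 and 9 (background 6.28% and 6.69%). Without KO replicate 1 these were 4 and 4, and without KO replicate 2 they were 3 and 4. Uqcrq, of complex III, was among the falls (centred −0.52). Spliceosome subunits were higher in 10 of 36 and lower in 3 (background 10.4% and 9.30%), and after centring in 0 and 2 (background 6.28% and 6.69%). Without KO replicate 1 the falls were 1, without KO replicate 2 they were 0 and without WT replicate 1 they were 1.

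Cytosolic ribosomal proteins with a peak were higher in 6 of 33 and lower in 4 (background 10.4% and 9.30%), and after centring in 4 and 1 (background 6.28% and 6.69%). They were higher in 19 without WT replicate 1 against 2 without KO replicate 1 or KO replicate 2. The falls numbered 1 without KO replicate 1, KO replicate 2 or WT replicate 1. The call of Rpl32 (1.15 ± 0.14, chromosome 6) was lost on centring (0.23), and Rpl39l, a copy expressed in germ cells, fell with 10.4 and 11.5 CPM in KO against 59.9 and 36.6 in WT (−2.17 ± 0.36). Ribosomal protein genes have many processed copies, so these counts are uncertain.

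Solute carriers with a peak were called higher in 17 of 104 and lower in 6 (background 10.4% and 9.30%), and after centring in 10 and 5 (background 6.28% and 6.69%). The glucose transporters Slc2a1 (1.07 ± 0.17) and Slc2a3 (1.90 ± 0.15, centred 0.98 on chromosome 6) and the glutamine transporter Slc1a5 (0.80 ± 0.17) rose. Slc25a5, the mitochondrial ADP/ATP carrier and one of few X genes with a peak, fell (−0.78 ± 0.14). Without KO replicate 2 the counts were 9 and 2.

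Zfp genes were called higher in 5 of 168 and lower in 10 (background 10.4% and 9.30%), so both shares were below those of all genes, and after centring in 0 and 10 (background 6.28% and 6.69%). Single genes that fell with Zfp981 were its chromosome 4 neighbour Zfp985 (−2.24 ± 0.28), whose copies are closely alike, and Zfp809 (−2.68 ± 0.56, and −3.45 without KO replicate 1), which is known to recognise retroviral sequence. Without KO replicate 2 the falls were 5, and the rises were 2 without KO replicate 1 and 3 without WT replicate 2. Other single genes were Sox15 (−1.79 ± 0.29, centred −1.31 on chromosome 11) and the collagen Col18a1 (−1.89 ± 0.24). Primitive endoderm genes with a peak were called higher in 3 of 6 (background 10.4% higher): the laminin chains Lama1 (1.69 ± 0.32) and Lamc1 (1.16 ± 0.22) and the receptor Lrp2 (1.63 ± 0.42), whose call was lost without KO replicate 1 (edgeR adjusted p = 0.110) and with DESeq2 (adjusted p = 0.0563). Without WT replicate 1 the value of Lrp2 was 2.56. The summed level of 4 primitive endoderm markers (Gata4, Gata6, Sox17, Pdgfra) overlapped between genotypes, with 6.90 and 3.14 CPM in KO and 1.69 and 3.81 in WT, and these 4 genes had at most 12 counts in any library.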

How the data were processed

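Members, families and lists were chosen with earlier results of these data known. The peak lists give positions, fold, −log10 q and a score; the fold, the −log10 values and the score are the authors' own, deposited from the peak caller, and are used only to describe and rank peaks. Tools listed in the submitters' processing notes include featureCounts, STAR 2.5.2b, MACS2 2.1.1.20160309 and Bowtie2 2.3.4.1; which control the caller used was not stated in the sources used. One peak lies on an added contig of the HA-tagged construct. Gene counts are raw read counts as deposited by the authors. Library totals were 2951498 and 1974865 (KO) and 2368804 and 1286393 (WT). Rows with a date for a symbol (26, at most 0.158% of counts) are not named.

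Gene intervals, symbols and promoters came from RefSeq tables of GRCm38.p6, which placed 24691 rows by symbol and 316 by synonym. Counts were filtered with filterByExpr, scaled by TMM and tested with the quasi-likelihood test of edgeR 4.0.16 (R 4.3.3), two-sided, with Benjamini-Hochberg adjustment over all genes and a threshold of 0.05, after a test on simulated data. Values after ± are standard errors (SE). Nothing says the libraries came from separate cultures, so p-values measure only the spread between libraries, which may be technical. Strand use in counting is not stated, so overlapping genes are uncertain. Intervals cover counting error only.

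The text names genes at the 10 strongest peaks, the 10 largest rises and falls among called genes with a mean of at least 10 CPM, Nanog, Rcor2, the 5 genes with most peaks, and family genes with high WT levels or called; 1 gene of this rule is not reported here. Among called family genes, those whose call held without any 1 library were preferred after values were seen. The peaks of REST targets, the genes with RE1 sites and the stem cell lists' uncalled genes were also named after values were seen. Alternatives were DESeq2 1.42.0, scaling by library size, no filter, a replicate block, single libraries left out, chromosomes centred or left out, and stricter peaks. The gene H13 and the Eif2ak genes were taken out of the histone and initiation factor families after the data were seen, because the name patterns had caught them. CPM values use no transcript lengths.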

Additional observations from a re-analysis of the deposited data

How the results depend on the processing

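Against 686 genes with a peak called higher and 592 lower, DESeq2 gave 381 and 265, leaving out chromosomes 3, 6, 8 and 11 gave 295 and 285, and peaks with a −log10 q of at least 5 gave 392 and 360, over fewer genes. Centring the chromosomes gave 407 higher. Without 1 library in turn, the range was 366 to 612 higher and 268 to 496 lower, where the lone library of a group is assumed to vary like the other group. The percentages called stayed near the background in the fits for which both are given above.

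The share of genes detected in WT, 82.8% with a peak and 39.1% of the others, was 83.7% and 49.7% with a −log10 q of at least 5, 84.6% and 42.9% within 500 bp, and 76.4% and 32.5% when 10 counts over both libraries were required. With 1 WT library it was 85.9% to 88.0% and 43.4% to 46.9%. The share of all genes with a peak, 42.4%, was 24.1% with a −log10 q of at least 5, 16.3% with a fold of at least 5, 35.4% within 500 bp, 44.1% with no limit on width and 39.9% at starts only. Families above the share of all genes numbered 31 to 34 in these settings, and at most 7 families changed side.

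The replicate block gave 630 higher and 521 lower and ended no call of the 60 genes examined singly. DESeq2 ended those of Tcl1, Lin28a, Fos, Etv4 and Lrp2, and scaling by library size alone called Rcor2 (edgeR, adjusted p = 0.0461). Same-numbered KO and WT libraries did not deviate together (correlation −0.0532), so they share only a number. Nanog (−0.44) and Gdf3 (−0.11) turned on centring. Depth limits the rest: a gene with 0 counts may lie at up to 2.33 CPM in the shallowest library.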
